A study of Homo sapiens with 24 samples.

Results

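TAOK1, TAOK2 and TAOK3 encode the TAO kinases, and their transcripts were followed here through all 24 libraries of a study of TAOK2 and nuclear RNA processing in A549 cells, a human lung adenocarcinoma line whose genotype label is WT. The members were every transcript that the GENCODE 29 annotation assigns to these 3 genes and that both deposited tables list, which gave 31 transcripts of 188753: 6 of TAOK1, 6 of TAOK2 and 19 of TAOK3. Summed by gene, they were 3 of 35579 genes. The unit throughout is TPM (the transcript abundance unit of kallisto), a level per transcript length that is a share of a fixed total in each library.

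The whole-cell experiment had 4 groups with 3 libraries each, from batches A, B and C: cells reverse transfected with a pool of siRNAs against TAOK2 at 30 nM, cells given a non-targeting control pool in the same way, cells given the solvent DMSO, and cells given compound 2, which the labels describe as an inhibitor of the kinase TAOK2. The fractionation experiment had control or TAOK2 siRNA, each in total RNA, nuclear RNA and cytoplasmic RNA (2 libraries per group, batches 1 and 2). All groups were A549 cells of the same label, and the titles of the whole-cell libraries, controls included, also carry the word mock, which the labels do not explain. The labels state no dose or time for compound 2, and nothing beyond the batch says whether libraries came from separate cultures, so the p-values measure only the spread between these libraries.

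TAO kinases are serine/threonine kinases of the sterile-20 family that act as MAP kinase kinase kinases: they phosphorylate the kinases MAP2K3 and MAP2K6 and so activate p38. They also phosphorylate the Hippo pathway kinases STK3 and STK4 (MST2 and MST1) and interact with MARK kinases, which control microtubules. TAOK2 is known in alpha and beta forms that share the kinase domain and differ in their C-terminal part. TAOK3 is also called JIK.

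In the GRCh38 annotation TAOK1 (ENSG00000160551) lies at chr17:29390464-29551904 on the plus strand, TAOK2 (ENSG00000149930) at chr16:29973641-29992261 on the plus strand and TAOK3 (ENSG00000135090) at chr12:118149801-118372945 on the minus strand. No other annotated gene overlaps TAOK2. TAOK1 overlaps the long noncoding RNA AC068025.2 on its own strand, the antisense RNA AC068025.1, the microRNA gene MIR4523 and the small RNA pseudogenes RNU6-711P and RNU6-1034P. TAOK3 holds the processed pseudogene RPS2P5 on the opposite strand, in 0 of its exons. The sources used here do not say whether strand was used.

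The transcripts that the results turn on differ at a few splice junctions, and 15 bases on each side of these points are printed from the GENCODE 29 transcript sequences, 5′ to 3′. Within each pair, lower case marks bases that both transcripts share and capitals mark where they part. The first pair separates the major TAOK2 forms. TAOK2-201 (19 exons, 4246 nt, 1049 codons, the beta form) joins exon 16 to exon 17, and TAOK2-202 (16 exons, 5169 nt, 1235 codons, the alpha form) reads on from exon 16 after chr16:29986490-29986504.
TAOK2-201: cccaagagcctcaaaTCTAAGGAGCTGCAG
TAOK2-202: cccaagagcctcaaaGTACGTGCAGGCCAG
The second pair shows the 3′ end of the intron that the retained-intron transcript TAOK2-206 keeps. That transcript has 2 exons and 1721 nt, at chr16:29989910-29991710. TAOK2-201 joins the end of exon 17 (chr16:29989791-29989805) to exon 18, and TAOK2-206 holds the intron bases (chr16:29990769-29990783) in front of the same exon.
TAOK2-201: CTCAGCTCACAGGCGctgcggcttgatgag
TAOK2-206: GTTCATCTTCCCCAGctgcggcttgatgag
The third pair is the junction at which TAOK1-202 skips 2 exons. TAOK1-201 (20 exons, 12407 nt, 1001 codons) joins exon 15, which ends at chr17:29510978-29510992, to exon 16. TAOK1-202 (18 exons, 4068 nt, 853 codons) lacks exons 16 and 17, of 204 and 240 nt, and also ends earlier, at base 29544340.
TAOK1-201: gagcagcttaaagagGAGCTAAATGAAAAC
TAOK1-202: gagcagcttaaagagTCTAAAGAACTCCAA
The next pairs are the points at which the retained-intron transcripts TAOK1-206 (353 nt) and TAOK1-204 (564 nt) read from an exon into the intron after it. TAOK1-206 does so after exon 2, at chr17:29451666-29451680, and TAOK1-204 after exon 18, at chr17:29530605-29530619.
TAOK1-201: ggagcagtgtattttGCACGAGATGTGCGT
TAOK1-206: ggagcagtgtattttGTAAGTGTTAGTGGC
TAOK1-201: ctctccacacaagccCTGCGTTTGGATGAA
TAOK1-204: ctctccacacaagccGTGAGTTTGCTTTTT
The last sequence is a stretch of TAOK1-201 exon 4 in which the short transcript TAOK1-205 (5 exons, 526 nt) ends in the annotation after chr17:29475689-29475703. Its annotated coding part has 238 nt, not a whole number of codons, and it is outside the GENCODE basic set. Whether the RNA itself ends there was not tested. Its capitals mark the first bases that TAOK1-205 does not reach.
TAOK1-201: aggaagtcaagtttcTACAAAGAATAAAAC

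How far reads can separate these transcripts follows from the sequence each has to itself. Of the 31-base words of TAOK1-201, 8130 of 12377 occurred in no other transcript of the 3 genes, against 28 of 4038 for TAOK1-202. For TAOK1-205 they were 125 of 496, for TAOK1-204 119 of 534 and for TAOK1-206 26 of 323. TAOK2-201 had 793 of 4216, TAOK2-202 541 of 5139 and TAOK2-206 873 of 1691. In TAOK3 they were 52 of 4354 for TAOK3-201, 343 of 747 for TAOK3-205, 74 of 583 for TAOK3-218 and 0 of 558 for TAOK3-217, which has no such word of its own. A transcript with few such words, as TAOK1-202 or TAOK1-206, has a level that rests on reads over a junction and on the estimates for its neighbours.

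Of the 31 transcripts, 13 had a mean of at least 0.5 TPM in the whole-cell table and were tested there, 10 in the fractionation table, 16 in either and 7 in both. By gene these were 6, 4 and 3 transcripts of TAOK1, TAOK2 and TAOK3 in whole cells, and 2, 3 and 5 in the fractionation experiment. The transcripts below that level reached at most 0.554 TPM for TAOK2 and 0.750 TPM for TAOK3 in whole cells. In the fractionation experiment they reached 0.685, 0.643 and 1.26 TPM for the 3 genes in that order. For TAOK3 they summed to 6.86% to 16.5% of the gene in whole cells, and 2 of its transcripts were listed at 0 in every library of both tables.

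The libraries were polyadenylated RNA of epithelial character: all 6 epithelial markers were over 1 TPM in whole cells (EPCAM, CDH1 and 4 keratins, summing to 6374 to 9521 TPM), endothelial markers in whole cells summed to 0.573 to 1.23 TPM, fibroblast markers to 6.02 to 30.8 TPM, and 1 of 4 leukocyte markers was over 1 TPM. The median change over all 13106 genes tested was -0.31 on the log2(TPM + 1) scale for compound 2 and -0.05 for TAOK2 siRNA. With each library's median subtracted the direction of many gene calls turned: 18.8% of called genes were higher with compound 2 as deposited and 64.0% after centring, and with TAOK2 siRNA the shares were 35.1% and 48.4%. Compound 2 changes of the 3 genes and of the transcripts called with it are therefore given as deposited and after centring. Gene values were centred on each library's median gene level and transcript values on its median transcript level. The resulting shifts differ, so centred gene and transcript changes cannot be set side by side. A shift in median level also need not equal the median change.

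By gene sum, TAOK1 was the most abundant TAO kinase in whole cells with control siRNA, TAOK2 came next and TAOK3 last. The TAOK1 sum counts the short TAOK1-205, at a mean of 25.4 TPM in that group. TAOK1-201 averaged 34.8 TPM, against 20.7 for TAOK2-202 and 13.8 for TAOK2-201, so the sums do not rank the full-length forms. TAOK1 was at 66.3, 59.1 and 59.1 TPM in batches A, B and C, with a mean of 61.5 ± 4.13 (SD, n = 3). TAOK2 was at 40.3, 38.2 and 34.3 TPM (37.6 ± 3.03), and TAOK3 at 20.2, 18.96 and 15.01 TPM (18.1 ± 2.71). The 3 ranges did not overlap, and the same order of sums held in each DMSO and each compound 2 library. With compound 2 that order rested on TAOK1-205, at a mean of 31.7 TPM. TAOK1-201 averaged 8.67 TPM in those libraries, against 14.4 for TAOK2-202 and 7.99 for TAOK2-201. Among 20 sterile-20 family kinases on the same per-length scale, the 3 genes ranked 6, 9 and 14, below PAK4 and MAP4K4 at the top. In total RNA of the fractionation experiment the order was another: TAOK1 was at 28.7 ± 4.33 TPM (n = 2), TAOK3 at 16.1 ± 3.32 and TAOK2 at 7.35 ± 3.32, ranks 7, 14 and 16. The nuclear control libraries of TAOK2 and TAOK3 overlapped in level.

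**Figure D1:**
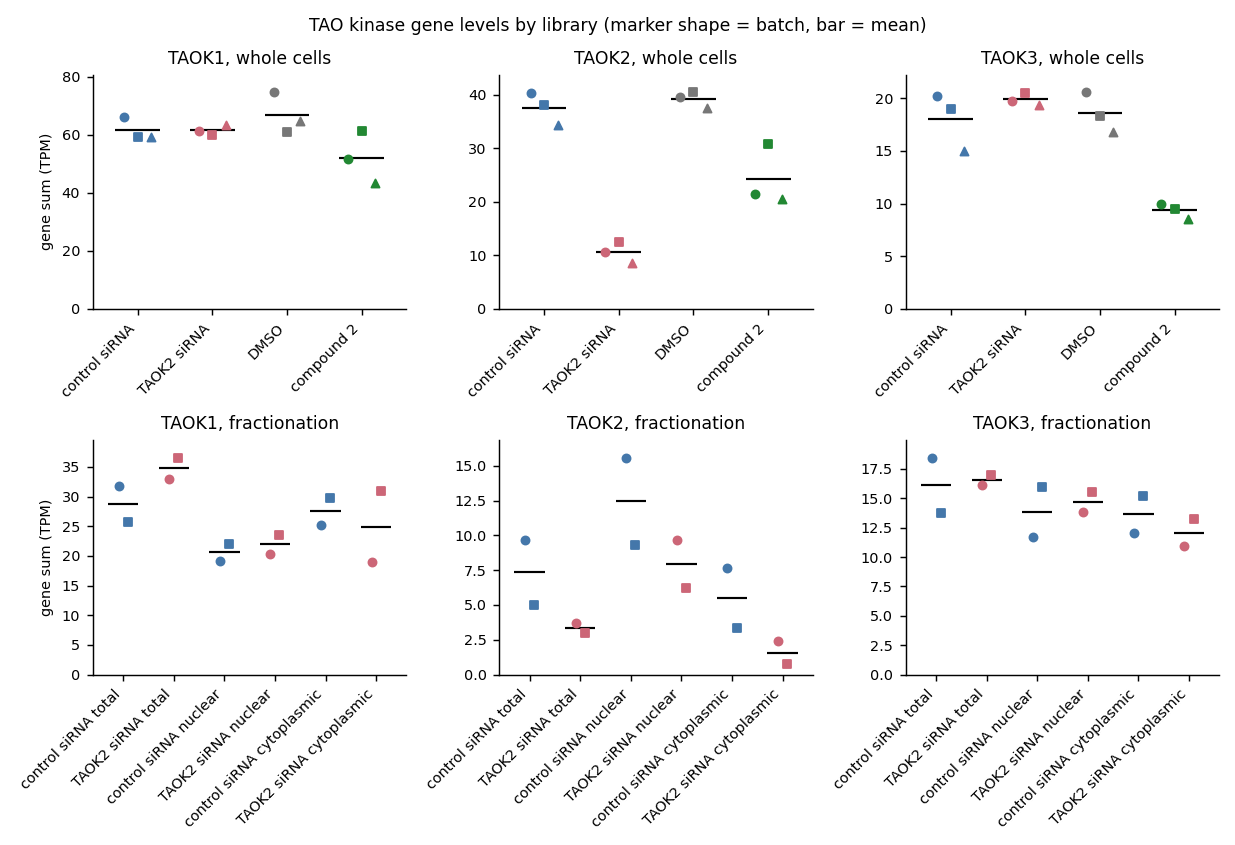
Levels of TAOK1, TAOK2 and TAOK3 in TPM (y axis) in every library, by group (x axis), with whole cells above and RNA fractions below; marker shape is the batch and the bar the group mean. TAOK2 stands at 8.56 to 12.5 TPM with its siRNA against 34.3 to 40.3 with control siRNA, and TAOK3 at 8.56 to 9.98 with compound 2 against 16.8 to 20.6 with DMSO.

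Each gene had its own mix of transcripts. TAOK1-201, the full-length form, was 51.4%, 58.9% and 60.0% of TAOK1 with control siRNA, at 34.1, 34.8 and 35.5 TPM. Nearly all the rest was the short TAOK1-205, at 30.2, 23.2 and 22.8 TPM. TAOK2-202 (alpha) was 52.8% to 57.5% of TAOK2 and TAOK2-201 (beta) 35.0% to 39.0%, with TAOK2-206 at 5.04% to 6.65%. TAOK3-201, which encodes 898 residues, was at 12.5 to 15.4 TPM.

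The first question was what an siRNA pool against TAOK2 did to the 3 kinases. TAOK2 fell, and neither TAOK1 nor TAOK3 passed the test. TAOK2 was at 10.6, 12.5 and 8.56 TPM with its siRNA, so 26.3%, 32.8% and 24.9% of the control library of the same batch remained. Every TAOK2 siRNA library lay below every control library. In limma, with Benjamini-Hochberg adjustment, TAOK2 fell by 1.75 on the log2(TPM + 1) scale (SE 0.15, 95% interval -2.08 to -1.43, adjusted p = 2.32e-05), rank 6 of 13106 genes by size of fall. Over all genes, 22.2% passed the threshold of 0.05 and 14.4% were lower, so 1 of the 3 members was called. In bulk RNA, fewer cells with a transcript and less of it per cell cannot be told apart.

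TAOK1 was at 61.5, 60.0 and 63.4 TPM with TAOK2 siRNA, within the control range of 59.1 to 66.3. Its change was 0.01 (95% interval -0.24 to 0.25, adjusted p = 0.980). TAOK3 was at 19.8, 20.5 and 19.4 TPM, overlapping the control libraries, with a change of 0.14 (interval -0.10 to 0.38, adjusted p = 0.391). Control siRNA itself differed from DMSO by -0.12 for TAOK1, -0.06 for TAOK2 and -0.05 for TAOK3 (adjusted p = 0.592 to 0.862), in a comparison where 6.43% of genes were called.

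The fall was seen in both major forms of TAOK2, which were not tested against each other. TAOK2-201 (beta) went from 14.6, 14.9 and 12.02 TPM to 2.42, 3.13 and 1.95, which left 16.6%, 21.0% and 16.3%. TAOK2-202 (alpha) went from 22.3, 20.2 and 19.8 TPM to 4.81, 5.44 and 4.34, which left 21.6%, 27.0% and 22.0%. Both fell, by 2.09 (SE 0.14, adjusted p = 7.09e-05) and 1.89 (SE 0.14, adjusted p = 0.000116), with no overlap between groups. They were 2 of 13 member transcripts called, against 3.5% of 61296 transcripts, and ranked 15 and 27 by size of fall.

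The other TAOK2 transcripts tested did not pass. TAOK2-206, the retained-intron transcript, was at 2.68, 2.45 and 1.73 TPM in control libraries and 1.97, 2.57 and 1.40 in TAOK2 siRNA libraries, and the groups overlapped. Its change was -0.15 (95% interval -0.66 to 0.36, adjusted p = 0.805). TAOK2-203, a coding transcript of 8 exons that starts at chr16:29980352 and so lacks the 5′ exons, was at 0.509, 0.600 and 0.424 TPM against 0.775, 0.723 and 0.683 (change 0.19, interval -0.14 to 0.53, adjusted p = 0.571).

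As a share of TAOK2 RNA, these minor transcripts became a larger part. TAOK2-206 made up 6.65%, 6.40% and 5.04% in control libraries and 18.6%, 20.5% and 16.3% when TAOK2 was targeted. TAOK2-203 went from 1.26%, 1.57% and 1.23% to 7.32%, 5.78% and 7.98%. Tested as the log2 odds of a transcript against the rest of its gene, both rose, TAOK2-206 by 1.81 (SE 0.19, adjusted p = 0.00786) and TAOK2-203 by 2.16 (SE 0.18, adjusted p = 0.00153). This test called 21 of 56738 transcripts in the comparison, 0.037%, and these were 2 of them. The odds are set against the rest of the gene, here mostly the alpha and beta forms, which fell. Such odds rise even where a transcript keeps its level, so the 2 calls are not a result apart from the knockdown. The alpha and beta forms together were 91.5% to 92.5% of the gene with control siRNA and 68.3% to 73.5% with TAOK2 siRNA, with odds changes of -0.48 and -0.75 that did not pass (adjusted p = 0.286 and 0.106). The ratio of alpha to beta was 1.35 to 1.64 with control siRNA and 1.74 to 2.22 with TAOK2 siRNA.

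**Figure D2:**
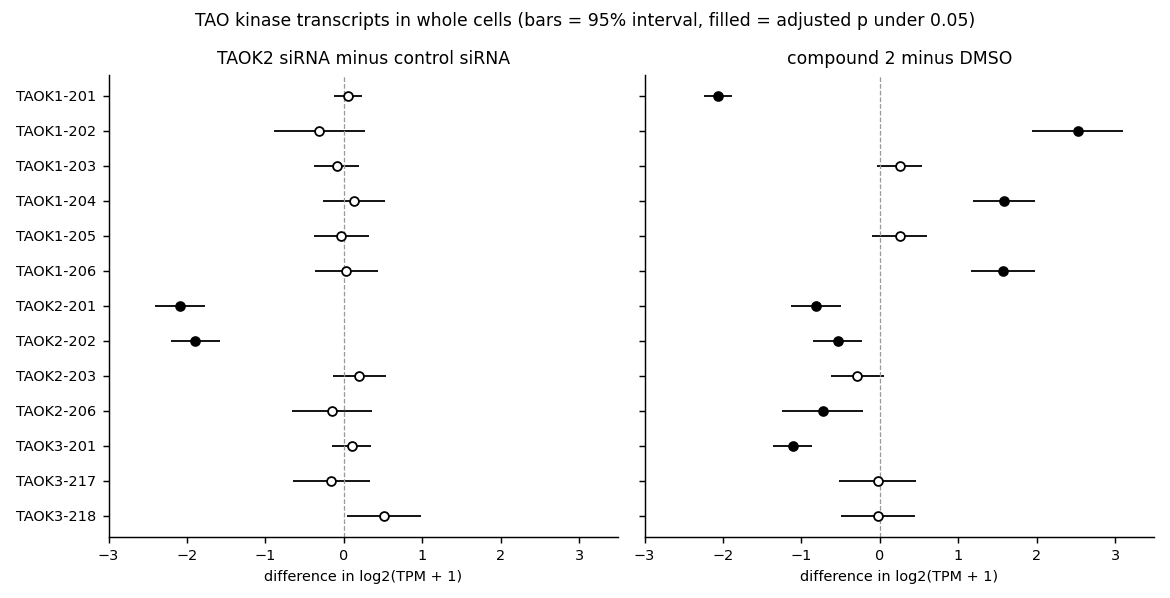
Change of each tested TAO kinase transcript in whole cells on the log2(TPM + 1) scale (x axis) with its 95% interval, for TAOK2 siRNA against control siRNA and compound 2 against DMSO; filled points had an adjusted p under 0.05. TAOK2-201 and TAOK2-202 are the filled points of the siRNA comparison, and TAOK1-201 at -2.06 and TAOK1-202 at 2.52 are the extremes of the compound 2 comparison.

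The second question was what compound 2 did to the transcripts of the kinase it is labelled to inhibit and of its relatives. All 3 genes were called lower as deposited, in a comparison where 63.7% of genes were called and 51.8% were called lower, so that count stands near the background. TAOK3 fell from 20.6, 18.3 and 16.8 TPM with DMSO to 9.98, 9.49 and 8.56, by 0.92 (SE 0.11, adjusted p = 1.25e-05), and by 0.41 after centring (adjusted p = 0.00365). TAOK2 fell from 39.7, 40.6 and 37.5 TPM to 21.5, 30.7 and 20.5, by 0.70 (SE 0.15, adjusted p = 0.00136), but after centring its change was -0.19 (adjusted p = 0.200). TAOK1 went from 74.8, 61.0 and 64.7 TPM to 51.5, 61.3 and 43.5, a change of -0.36 (SE 0.11, 95% interval -0.60 to -0.12, adjusted p = 0.0126) that turned to 0.15 after centring (adjusted p = 0.164).

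The TAOK1 groups overlapped at batch B. That call was lost without the third compound 2 library (-0.24, adjusted p = 0.0567), without the first DMSO library (-0.28, adjusted p = 0.0610), and with only the groups compared in the fit (adjusted p = 0.0511).

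The TAOK1 sum held transcripts that moved in opposite directions. TAOK1-201, the full-length form, fell in every batch, from 42.7, 38.5 and 36.7 TPM with DMSO to 8.33, 9.52 and 8.16 with compound 2. That left 19.5%, 24.7% and 22.2%, a fall of 2.06 (SE 0.08, 95% interval -2.24 to -1.88, adjusted p = 3.51e-08), and 1.81 after centring (adjusted p = 5.42e-08). Its share of TAOK1 went from 57.1%, 63.1% and 56.8% to 16.2%, 15.5% and 18.8%.

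TAOK1-202, which skips exons 16 and 17 and also ends earlier, went the other way. TAOK1-201 shares 100% of its exon bases, and 28 of its 4038 31-base words are its own. Whether exon skipping, the earlier end or the division of shared reads lay behind the rise was not tested. TAOK1-202 was at 0.216, 0 and 0.0684 TPM with DMSO and at 3.92, 7.49 and 4.90 with compound 2. With compound 2 it made up 7.61%, 12.2% and 11.3% of the gene. It rose by 2.52 (SE 0.26, adjusted p = 1.61e-05), and by 2.77 after centring. In the siRNA groups it was at 1.02 TPM in 1 control library and at 0 to 0.0995 in the other 5.

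The short retained-intron transcripts rose as well. TAOK1-204 was at 0.416, 0.302 and 0.303 TPM with DMSO and at 2.63, 4.20 and 2.43 with compound 2, a ratio of means of 9.07 and a rise of 1.58 (SE 0.18, adjusted p = 2.76e-05). TAOK1-206 was at 0.0802, 0 and 0.0750 TPM with DMSO and at 3.40, 1.43 and 1.83 with compound 2, a rise of 1.57 (SE 0.18, adjusted p = 3.83e-05). After centring the rises were 1.83 and 1.82. Neither group pair overlapped, and TAOK1-206 was listed at 0 in all 3 control siRNA libraries.

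TAOK1-205 and the longer retained-intron transcript TAOK1-203 did not pass the test as deposited. TAOK1-205 was at 30.5, 21.6 and 26.9 TPM with DMSO and 32.1, 37.6 and 25.4 with compound 2 (change 0.25, 95% interval -0.10 to 0.60, adjusted p = 0.222), and TAOK1-203 at 0.933, 0.603 and 0.588 against 1.19, 1.07 and 0.829 (change 0.25, interval -0.04 to 0.54, adjusted p = 0.138). After centring both changes were 0.50 and passed (adjusted p = 0.0134 and 0.00661). Since TAOK1-201 had fallen, TAOK1-205 was the largest transcript of the gene with compound 2, at 62.2%, 61.3% and 58.3% against 40.7%, 35.5% and 41.6% with DMSO. With TAOK1-205 and the other transcripts outside the GENCODE basic set left out of the sum, a choice made after seeing the data, TAOK1 fell by 1.43 (adjusted p = 1.59e-07).

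**Figure D3:**
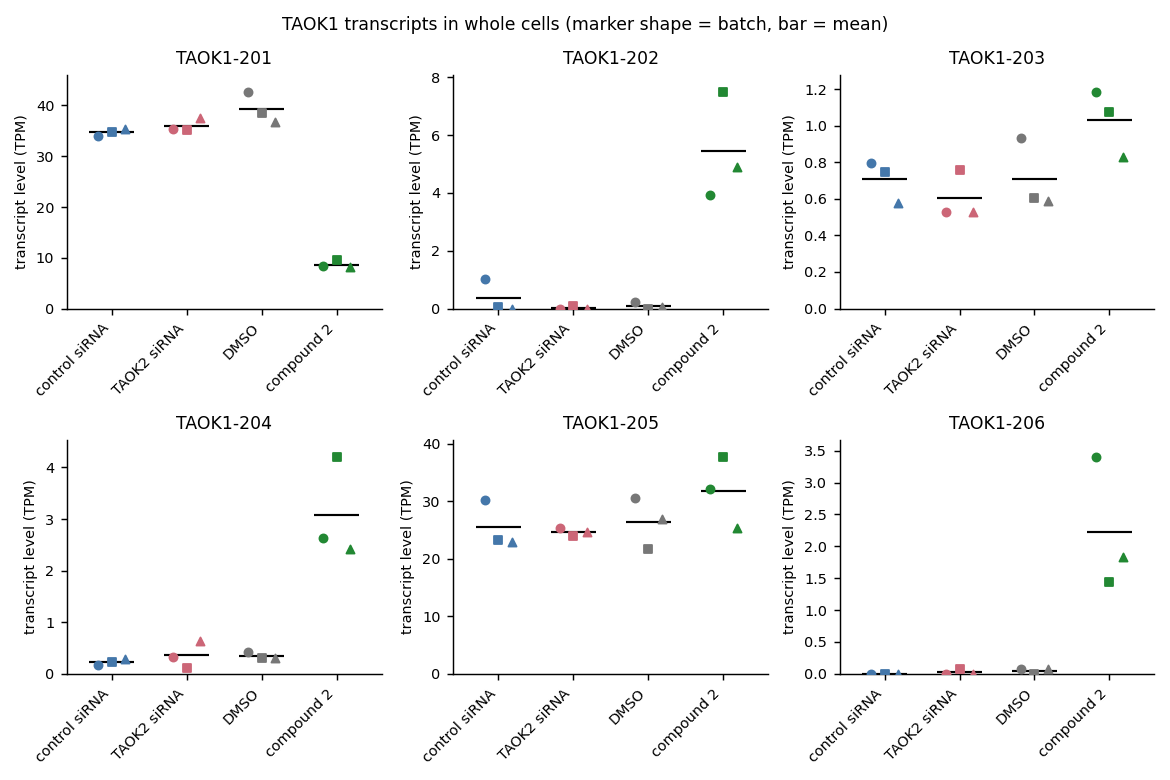
Levels of the 6 TAOK1 transcripts in TPM (y axis, a scale of its own in each panel) in the 12 whole-cell libraries by group; marker shape is the batch and the bar the group mean. The compound 2 libraries lie at 8.16 to 9.52 for TAOK1-201, below all other groups, and at 3.92 to 7.49 for TAOK1-202, above all other groups.

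With compound 2, 450 of 10337 genes with 2 or more tested transcripts (4.35%) had at least 3 called higher and at least 1 lower. TAOK1, with 6 tested, was among them, but this pattern was taken from its own calls. Genes with too few tested transcripts to show it are in the total, so the share does not say how rare TAOK1 is. With at least 1 called in each direction there were 2390 genes (23.1%), against 14 with TAOK2 siRNA. Retained-intron transcripts as a class had more lower than higher calls with compound 2: of 9814 tested, 12.8% were higher and 40.0% lower. Protein-coding transcripts over 10000 nt, the length class of TAOK1-201, were lower in 65.4% of 520, with a median change of -0.64, against 18.3% of 3844 of up to 600 nt with a median of -0.06. The part of transcript length in the fall of TAOK1-201 was not tested.

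Both major TAOK2 forms went down, and they were not tested against each other. TAOK2-201 fell from 14.1, 15.99 and 14.2 TPM to 7.12, 9.23 and 7.62, by 0.81 (SE 0.14, adjusted p = 0.000772), and by 0.57 after centring (adjusted p = 0.00473). TAOK2-202 fell from 21.8, 20.6 and 20.6 TPM to 13.2, 18.3 and 11.6, by 0.54 (SE 0.14, adjusted p = 0.0088), and its change after centring was -0.29 (adjusted p = 0.0670). TAOK2-206 was at 2.84, 3.04 and 1.90 TPM with DMSO and 0.875, 1.97 and 0.765 with compound 2. These groups overlapped at batch B of compound 2, and the change of -0.73 (adjusted p = 0.0230) was -0.48 and missed the threshold after centring (adjusted p = 0.0846). It also missed it without compound 2 library 1 or 3 or DMSO library 1 or 2 (adjusted p = 0.0694 to 0.0877). The odds changes were -0.24 for TAOK2-201 and 0.32 for TAOK2-202 (adjusted p = 0.244 and 0.122). No TAOK2 transcript was called by that test, which sets each against the rest of its gene. The ratio of alpha to beta, given with no test, was 1.29 to 1.55 with DMSO and 1.52 to 1.98 with compound 2.

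TAOK3-201, the main form of the third kinase, fell from 17.4, 15.3 and 13.01 TPM to 6.70, 6.55 and 6.14, to 42.5% of the DMSO mean. The groups did not overlap, and the fall was 1.11 (SE 0.11, adjusted p = 1.39e-05), or 0.86 after centring (adjusted p = 7.87e-05). Its share of the gene went from 84.2%, 83.4% and 77.4% to 67.2%, 69.0% and 71.8%, an odds change of -0.97 (adjusted p = 0.00630). The short transcripts TAOK3-217, which has 0 words of its own, and TAOK3-218, which cover the 5′ part of the gene, had changes of -0.03 and -0.02 as deposited. Their odds changes of 0.98 and 0.97 passed (adjusted p = 0.0323 and 0.0167) and were lost with 0.1 TPM in place of 0.5 added (0.0930 and 0.0609). The pseudogene RPS2P5 inside TAOK3 was at 286 to 328 TPM with DMSO and 336 to 398 with compound 2.

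Over the 13 member transcripts, compound 2 gave 3 higher and 5 lower calls and a median change of -0.03. Over all transcripts 46.7% were called, 11.6% higher and 35.1% lower, with a median of -0.25. By the odds test 7 of 13 were higher and 2 lower, where 32.9% of all transcripts were called, 17.1% higher and 15.8% lower. The 7 were the 5 TAOK1 transcripts other than TAOK1-201, and TAOK3-217 and TAOK3-218. Odds within a gene depend on each other: with the main transcript down, those of the others go up together. The 7 are therefore not separate results and cannot be read against the share over all transcripts.

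**Figure D4:**
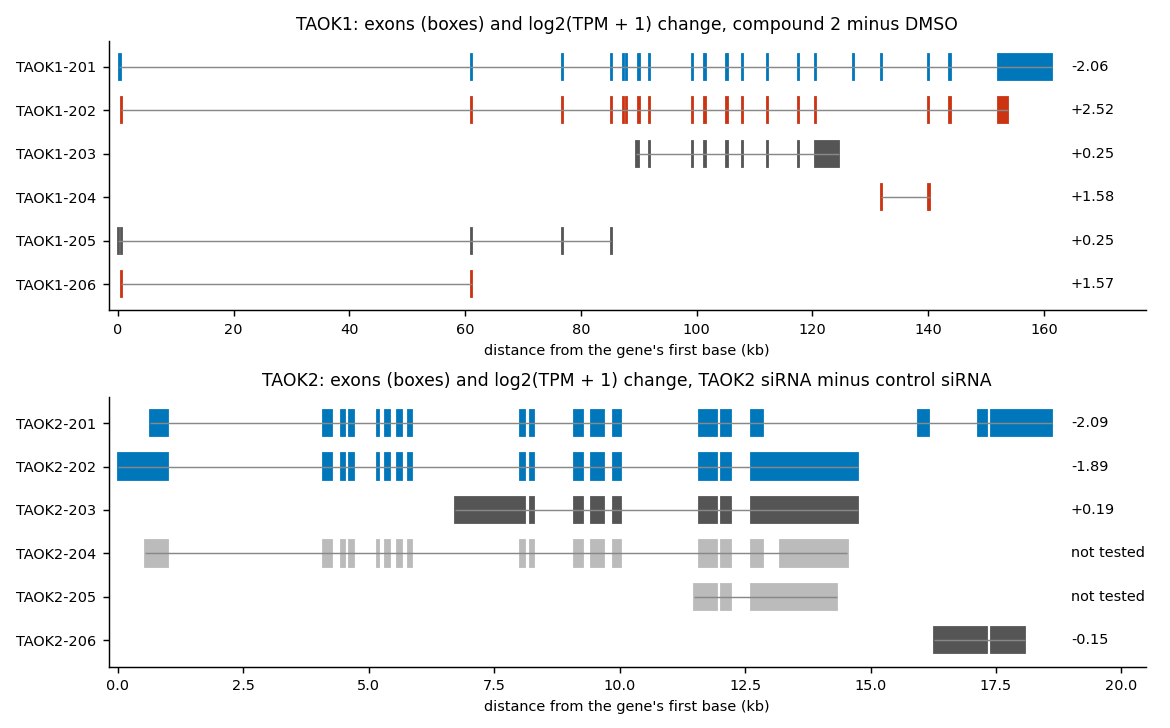
Exons (boxes) of the 6 TAOK1 and 6 TAOK2 transcripts, as distance from the gene's first base in kb (x axis), with the change in log2(TPM + 1) at the right; red and blue mark called rises and falls, dark grey tested without a call and light grey not tested. TAOK1-201, with the longest last exon, is at -2.06 with compound 2, while TAOK1-202, TAOK1-204 and TAOK1-206 are at 1.57 to 2.52.

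The siRNA and compound 2 effects were also compared with each other, and they differed for TAOK2, for TAOK3 and for TAOK1 transcripts. The siRNA effect minus the compound 2 effect was -1.06 for TAOK2 (adjusted p = 0.00114, and -1.52 after centring), so the siRNA lowered it further. It was 1.06 for TAOK3 (adjusted p = 0.00012), and 0.60 after centring (adjusted p = 0.00400). For TAOK1 it was 0.37 (adjusted p = 0.0659), and -0.10 after centring. Of all genes, 54.7% differed, 77.5% of them with a higher siRNA effect as deposited and 37.2% after centring. For TAOK1-201 the difference was 2.11 (adjusted p = 1.15e-06), for TAOK1-202 -2.84 (adjusted p = 0.00019), for TAOK1-204 -1.45 (adjusted p = 0.00114) and for TAOK1-206 -1.53 (adjusted p = 0.000996). For the odds of TAOK2-206 and TAOK2-203 it was 2.04 and 1.91 (adjusted p = 0.000331 and 0.000373), in a test that called 22.6% of transcripts.

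The third question was how the transcripts differed in level between the RNA fractions. TPM are shares of all RNA in a library, so a nuclear to cytoplasmic ratio is not a share of molecules per cell. Before the values, 1 check of the fractions went against their labels: the 13 mitochondrially encoded mRNAs, which belong to an organelle of the cytoplasm, summed to 379462 to 424867 TPM in the control libraries labelled nuclear, against 108235 to 139131 in those labelled cytoplasmic and 43389 to 66333 in total RNA. TAOK2 siRNA libraries had 365194 to 408926 TPM in nuclear and 81008 to 125843 in cytoplasmic RNA. Retained-intron transcripts were a larger part of nuclear RNA, 8.86% to 9.75% of TPM against 3.59% to 3.92% in cytoplasmic RNA with control siRNA. The part of the mitochondrial share in the differences below was not tested.

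With control siRNA, TAOK2 was at 15.6 and 9.31 TPM in nuclear RNA and 7.63 and 3.37 in cytoplasmic RNA (batches 1 and 2). It was higher in the nuclear library of either batch, by 1.09 (95% interval 0.01 to 2.17, adjusted p = 0.0873, and 0.000895 with batch as a block). The difference was 0.70 after centring (adjusted p = 0.224) and 0.60 to 1.58 without 1 library. TAOK1 was at 19.2 and 22.0 TPM against 25.3 and 29.8, a change of -0.40 (adjusted p = 0.195). After centring this became -0.78 (adjusted p = 0.0242). TAOK3 was at 11.7 and 15.9 TPM against 12.1 and 15.2, a change of 0.01 (adjusted p = 0.966) and -0.37 after centring. So 0 of the 3 genes passed as deposited, where 48.7% of 13751 genes did, 61.2% of them higher in nuclear RNA and 40.4% after centring.

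Of the 3 TAOK2 transcripts tested there, the retained-intron one was called. TAOK2-206 was at 5.34 and 4.46 TPM in nuclear RNA and 0.0388 and 0.0215 in cytoplasmic RNA, with 0.795 and 0.554 in total RNA. It was higher in nuclear RNA by 2.51 (SE 0.20, adjusted p = 5.18e-05), and by 1.68 after centring (adjusted p = 0.000495). It was 34.3% and 47.9% of nuclear and 0.509% and 0.637% of cytoplasmic TAOK2, an odds change of 2.90 (adjusted p = 0.0025). Among 11309 retained-intron transcripts tested, 72.5% were higher in nuclear RNA with a median of 1.68, and 76.0% lay below the change of TAOK2-206.

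The spliced TAOK2 forms were listed in both fractions, and neither differed in level by the test. TAOK2-201 was at 5.32 and 2.83 TPM in nuclear and 4.22 and 1.86 in cytoplasmic RNA (change 0.35, adjusted p = 0.563). TAOK2-202 was at 4.27 and 1.502 against 3.31 and 1.49 (change 0.15, adjusted p = 0.863). After centring on the median transcript level both changes were below 0, at -0.48 and -0.68. That shift was larger than the one for genes and than the median change of 0.34 over all transcripts. These signs therefore cannot be set beside the centred change of the TAOK2 gene. As shares, TAOK2-201 was 34.1% and 30.4% of nuclear and 55.3% of cytoplasmic TAOK2 in either batch, an odds change of -1.23 (adjusted p = 0.0102) that missed the threshold in 3 of 4 fits without 1 library (adjusted p up to 0.0647). TAOK2-202 was 27.4% and 16.1% against 43.3% and 44.1% (odds change -1.38, adjusted p = 0.0509, and 0.0187 with the batch block). Alpha and beta together were 98.6% to 99.4% of cytoplasmic and 46.6% to 61.5% of nuclear TAOK2.

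TAOK3 had a fraction difference in a minor transcript. TAOK3-205, a coding transcript of 2 exons and 777 nt at the 3′ end of the gene, was at 0.988 and 2.22 TPM in nuclear RNA and listed at 0 in both cytoplasmic libraries. It was higher in nuclear RNA by 1.34 (adjusted p = 0.00387), though by 0.51 after centring (adjusted p = 0.155), with an odds change of 2.16 (adjusted p = 0.00449). These were the 2 of 10 transcripts that passed, where 43.1% of 62296 did. By the odds test 2 were higher and 1 lower, where 34% of transcripts were called, 21.1% higher and 12.9% lower. Odds of transcripts of the same gene depend on each other here as well. The coding TAOK3-202 (21 exons) was at 2.43e-06 and 0.00237 TPM in nuclear and 0.357 and 2.33 TPM in cytoplasmic RNA with control siRNA, and at 1.39 and 0.327 against 0 and 0.0472 TPM with TAOK2 siRNA. Its fraction difference was -1.09 with control siRNA (adjusted p = 0.159), and the siRNA effect in nuclear minus that in cytoplasmic RNA was 1.88 (95% interval 0.06 to 3.71, unadjusted p = 0.0444, adjusted p = 1). The noncoding TAOK3-219 (597 nt) was at 0.297 and 0 TPM in nuclear and 0.0676 and 1.81 TPM in cytoplasmic RNA with control siRNA (difference -0.60, adjusted p = 0.346). Neither passed in any comparison. TAOK1-201 made up 91.4% to 98.4% of TAOK1 in the 12 libraries, with a fraction change of -0.46 (adjusted p = 0.202).

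**Figure D5:**
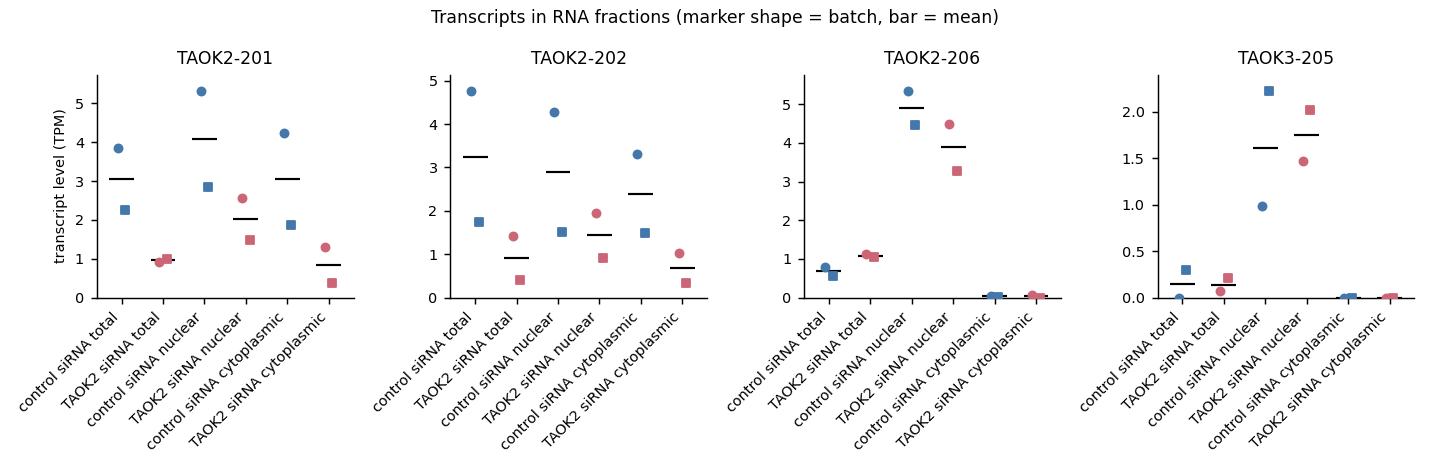
Levels of TAOK2-201, TAOK2-202, TAOK2-206 and TAOK3-205 in TPM (y axis) in each total, nuclear and cytoplasmic library by siRNA (x axis); marker shape is the batch and the bar the group mean. TAOK2-206 lies at 3.27 to 5.34 in nuclear and at 0 to 0.0734 in cytoplasmic libraries.

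In the fractions TAOK2 was lower with its siRNA in all 6 pairs of libraries of a batch. In total RNA it went from 9.70 and 5.01 TPM to 3.67 and 2.99, which left 37.8% and 59.8%. In nuclear RNA it went from 15.6 and 9.31 TPM to 9.68 and 6.24 (62.1% and 67.1%), and in cytoplasmic RNA from 7.63 and 3.37 to 2.41 and 0.728 (31.5% and 21.6%). The nuclear groups overlapped, since batch 1 with TAOK2 siRNA (9.68 TPM) lay above batch 2 with control siRNA (9.31 TPM), and the total and cytoplasmic groups did not.

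None of the 3 changes passed in the main fit, which leaves out the batch that pairs these libraries. They were -0.89 in total (95% interval -1.97 to 0.19, adjusted p = 0.880), -0.57 in nuclear (adjusted p = 0.834) and -1.34 in cytoplasmic RNA (interval -2.42 to -0.26, adjusted p = 0.565). With batch as a block the cytoplasmic change passed (adjusted p = 0.0128), and those in total (0.0522) and nuclear RNA (0.121) did not. Of all genes 0% passed in total RNA, 0.0145% in nuclear RNA (2 genes) and 0% in cytoplasmic RNA in the main fit. There 917, 1328 and 933 had an unadjusted p under 0.05. With batch as a block 339, 811 and 404 genes passed in total, nuclear and cytoplasmic RNA, so few calls in the main fit do not mean few differences. Leaving out 1 library gave -1.31 to -0.48 in total, -0.92 to -0.23 in nuclear and -1.83 to -0.85 in cytoplasmic RNA. The nuclear effect minus the cytoplasmic effect was 0.77 for TAOK2 (interval -0.76 to 2.29, adjusted p = 1), in a test that called 0% of genes (184 at an unadjusted p under 0.05), and it was 0.28 to 1.26 without 1 library. The summed fibroblast markers were at 20.9 to 22.4 TPM with control and 48.1 to 50.8 TPM with TAOK2 siRNA in total RNA, 15.01 to 17.3 and 31.1 to 32.8 TPM in nuclear, and 17.3 to 18.9 and 39.7 to 47.5 TPM in cytoplasmic RNA. Their part in the TAOK2 differences was not tested.

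By transcript, TAOK2-201 went from 4.22 and 1.86 TPM to 1.29 and 0.384 in cytoplasmic RNA, and from 5.32 and 2.83 to 2.57 and 1.49 in nuclear RNA. TAOK2-202 went from 3.31 and 1.49 to 1.02 and 0.344 in cytoplasmic, and from 4.27 and 1.502 to 1.96 and 0.910 in nuclear RNA. TAOK2-206 was at 5.34 and 4.46 TPM in nuclear RNA with control and 4.49 and 3.27 with TAOK2 siRNA, a change of -0.28 (adjusted p = 0.902). In total RNA its share of TAOK2 went from 8.20% and 11.1% to 30.4% and 35.3%, the same direction as in whole cells, with an odds change of 1.76 that did not pass after adjustment (unadjusted p = 0.00724, adjusted p = 1). TAOK1 and TAOK3 were at 33.0 and 36.6, and at 16.2 and 17.01 TPM in total RNA with TAOK2 siRNA, and neither passed in any fraction.

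Around the TAO kinases, 30 genes were listed that they act on or with: the MAP2K and MAPK genes of the p38 and JNK routes, Hippo kinases and their partners, NDR kinases, MARK kinases, TESK1, SPRED1 and ATM. With TAOK2 siRNA 4 of 28 measured genes were called (14.3%, against 22.2% of all genes), 1 higher and 3 lower, and the median change was 0.02. MAP2K4, an activator of JNK, fell by 0.91 (adjusted p = 6.22e-05), MAPK14, the alpha form of p38, by 0.54 (adjusted p = 0.00129), and MAP3K5, another stress-activated MAP kinase kinase kinase, rose by 0.54 (adjusted p = 0.00306). MOB1A, a partner of the LATS kinases, had a change of -0.20 whose call (adjusted p = 0.0447) was lost without any 1 of the 6 libraries (adjusted p = 0.0542 to 0.151). With batch as a block 7 genes were called, 4 higher and 3 lower, and after centring 8, of which 6 were higher and 2 lower. Control siRNA against DMSO called 1 of the 28 (3.57%, against 6.43% of all genes). It was MAP2K6, which was higher with control siRNA by 1.34 (adjusted p = 0.00713), and by 1.15 to 1.57 without 1 library. MAP2K6 was not called with TAOK2 siRNA or with compound 2.

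With compound 2, 17 of the 28 were called (60.7%, against 63.7%), 3 higher and 14 lower, and after centring 12 higher and 6 lower. STK38, an NDR kinase, fell by 1.69 (adjusted p = 9.72e-08), MAP2K7, an activator of JNK, by 1.40 (adjusted p = 3.99e-07), MARK4 by 1.00 (adjusted p = 4.61e-07) and MAPK14 by 0.88 (adjusted p = 2.02e-06). These 4 falls passed under every alternative tried, but the changes after centring were smaller: -1.18 for STK38, -0.89 for MAP2K7, -0.49 for MARK4 and -0.37 for MAPK14. The siRNA effect differed from the compound 2 effect for 17 of the 28, with 13 higher and 4 lower differences (6 and 7 after centring), led by STK38 at 1.97 (adjusted p = 1.59e-06, and 1.503 after centring).

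Between fractions with control siRNA, 11 of 29 pathway genes were called (37.9%), 6 higher and 5 lower in nuclear RNA. ATM, a DNA damage kinase that phosphorylates TAO kinases, was higher in nuclear RNA by 3.18 (adjusted p = 0.000316), MAPK11 by 1.55 (adjusted p = 0.00202) and MAPK10 by 1.45 (adjusted p = 0.00197), and MAP2K4 was lower (-0.83, adjusted p = 0.00722, and 0.0541 without the second cytoplasmic library). After centring the split was 3 higher and 10 lower, with batch as a block 18 were called, and without the first nuclear or the second cytoplasmic control library 4 were. The siRNA called 0 of the 29 in any fraction.

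The genes whose level followed each TAO kinase most closely over the 12 whole-cell libraries were taken from 10266 genes that averaged 5 TPM or more, as a description with no test, since the libraries share 4 groups. For TAOK1 these were USP36, UBN1 and VHL (Pearson r 0.96, 0.95 and 0.95), for TAOK2 RSPO3, NOP14 and CCDC43 (0.97 each), and for TAOK3 MGRN1, STK38 and TOP3B (0.98 each). Over the 12 fractionation libraries the same pairs had r of -0.34, 0.08 and 0.57 for TAOK1, -0.61, 0.73 and 0.07 for TAOK2, and -0.28, 0.37 and 0.37 for TAOK3. The likeness in whole cells was thus not kept by most of the 9 genes in the other experiment.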

How the data were processed

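Polyadenylated RNA of A549 cells was sequenced in 24 libraries. The deposited values are TPM per transcript, computed by the authors with kallisto (no version stated) against GRCh38.p14, per the submitters' processing notes. Each table lists 188753 transcripts and each library sums to 1000000 TPM, so the files keep no read depth and no counting interval can be given. Of these transcripts 169797 (89.96%, holding 97.0% to 98.3% of TPM) matched GENCODE 29 and were summed to genes. No count table was used.

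Groups and batches were taken from the labels. Differences were tested with limma 3.58.1 (statmod 1.5.0, R 4.3.3; Python 3.11.15), a model of group means over the 12 libraries of a table, with trended, robust moderation, two-sided, and Benjamini-Hochberg adjustment over all features tested. Genes needed a mean of at least 1 TPM and entered as log2(TPM + 1), which understates changes of low genes. Transcripts needed 0.5 TPM. Odds of a transcript against the rest of its gene had 0.5 TPM added to both. Adjusted p under 0.05 was called. The code was tested on simulated data.

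The labels name the batch, which pairs libraries. Residuals of libraries of one batch correlated at -0.302 to 0.639 in whole cells (12 of 18 pairs over 0.1) and 0.531 to 0.837 in fractions (30 of 30).

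Every tested member transcript is named. Up to 4 pathway genes per comparison with the smallest adjusted p, and 3 genes by likeness per member, are named. The members, lists and rules were chosen with earlier results of these data known. Alternatives were a pseudocount of 0.1 TPM, no filter, median-centred values, the batch block, only the groups compared, each library left out in turn and, chosen after seeing the data, transcripts of the basic set only and centring of transcript values. Of the 6 nuclear noncoding RNAs listed as fraction markers, 0 were found among the genes of either experiment, so that check could not be made.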

Additional observations from a re-analysis of the deposited data

How the results depend on the processing

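No call of a TAOK2 or TAOK3 gene change in whole cells was lost by leaving out any 1 library, and 16 of 19 called transcript changes and 19 of 24 called odds changes passed under every alternative tried. Centring each library on its median gene level turned TAOK1 with compound 2 to 0.15 and its siRNA minus compound 2 difference to -0.10. It took TAOK2 with compound 2 to -0.19, and between fractions gave -0.37 for TAOK3 and -0.78 for TAOK1. Centring on the median transcript level, a shift of another size, gave -0.48 for TAOK2-201 and -0.68 for TAOK2-202 between fractions. With basic transcripts only, the TAOK1 siRNA minus compound 2 difference was 1.46 and the fraction difference of TAOK3 -0.0095. With only the groups compared, TAOK1 with compound 2 was -0.36 and past the threshold no longer. With the batch as a replicate block, TAOK2 passed in cytoplasmic RNA (-1.34) and between fractions (1.09). Apart from these and the odds and counts given here or in the report, the block changed no call of a member gene.

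Leaving out 1 library gave -0.48 to -0.24 for TAOK1 with compound 2 and 0.25 to 0.49 for its siRNA minus compound 2 difference, called without compound 2 library 2 or DMSO library 2. It crossed 0 for changes that were not called: TAOK1 with TAOK2 siRNA (-0.022 to 0.059 in whole cells, -0.015 to 0.19 in nuclear and -0.51 to 0.17 in cytoplasmic RNA, -0.079 to 0.59 for their difference), TAOK3 in control siRNA against DMSO (-0.13 to 0.075), with TAOK2 siRNA in total (-0.15 to 0.25) and nuclear RNA (-0.11 to 0.30) and between fractions (-0.19 to 0.22), and between fractions TAOK2-201 (-0.086 to 0.78) and TAOK2-202 (-0.39 to 0.69).

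Counts of called genes moved more. For TAOK2 siRNA in whole cells 2905 became 1678 to 2270 without 1 library. For control siRNA against DMSO 843 became 1543 with the block, 416 without a filter and 117 to 825 without 1 library. For TAOK2 siRNA in fractions the block gave 339 in total, 811 in nuclear and 404 in cytoplasmic RNA, no filter gave 1, 115 and 3, and centring gave 3 in total and 7 in nuclear RNA. In nuclear RNA basic transcripts gave 9, only the groups compared 0 and leaving out 1 library 0 to 1. In cytoplasmic RNA a pseudocount of 0.1 TPM gave 1 and leaving out 1 library 0 to 1. The nuclear minus cytoplasmic effect gave 10 without a filter and 0 to 1 without 1 library. Among pathway genes control siRNA against DMSO called 1, and 4 with the block, 2 after centring and 3 with only the groups compared, and TAOK2 siRNA in whole cells called 7 with the block, 8 after centring and 9 with only the groups compared; the fraction comparison called 18 with the block and 4 to 11 without 1 library. Among 16 sterile-20 kinases TAOK2 siRNA called 3 to 6 without 1 library. The cause of these shifts was not tested. Where leaving out a library left a fraction group with 1, that library was assumed to vary like the other groups. TPM keep no depth, so what depth limits cannot be stated.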

Other observations

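Other sterile-20 family kinases, which share their kinase fold with the TAO kinases, were called with TAOK2 siRNA in whole cells. Of 16 measured, 5 were higher and 2 lower (43.8%, against 22.2% of all genes), with a median change of 0.19. MAP4K5 fell by 0.79 (limma, adjusted p = 0.000654), OXSR1, a kinase that activates ion cotransporters, rose by 0.53 (adjusted p = 0.000958) and MINK1 rose by 0.48 (adjusted p = 0.00174). MAP4K2 had a change of -0.40 whose call (adjusted p = 0.0143) was lost without control siRNA library 1 or 2 or TAOK2 siRNA library 3 (adjusted p = 0.0567 to 0.0627) and with basic transcripts only (0.105). With compound 2 the same list had 9 of 16 called (56.3%, against 63.7% of all genes), 3 higher and 6 lower (11 and 3 after centring), with control siRNA against DMSO 1 of 16, and with TAOK2 siRNA 0 of 17 in any fraction. With compound 2 MAP4K5 rose by 0.80 (adjusted p = 4.70e-05), but its change was -0.41 with basic transcripts only (adjusted p = 0.0191). MINK1 fell by 0.85 (adjusted p = 1.49e-06), and by 0.34 after centring. The OXSR1 change of -0.30 (adjusted p = 0.00525) turned to 0.21 after centring (adjusted p = 0.0203). The number called with TAOK2 siRNA in whole cells was 3 without control siRNA library 2 and 4 without control siRNA library 1 or TAOK2 siRNA library 2 or 3.

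The short transcript TAOK1-205 differed between the experiments. It was at 21.6 to 37.6 TPM in the 12 whole-cell libraries and at 0 to 0.476 TPM in the 12 fractionation libraries, listed at 0 in every library of batch 2. TAOK1-201 averaged 25.2 TPM over the fractionation libraries and reached at most 36.0 TPM. Its group means there ran from 18.9 (control siRNA, nuclear) to 33.7 TPM (TAOK2 siRNA, total). In the whole-cell libraries other than compound 2 it was at 34.1 to 42.7 TPM. Transcripts of up to 600 nt together made up 13.6% to 16.1% of TPM in the whole-cell table and 18.97% to 26.4% in the fractionation table. The pseudogene RPS2P5 inside TAOK3 was at 286 to 398 TPM in whole cells and 1.27 to 41.2 TPM in fractions. These levels were set side by side with no test, since the tables come from separate experiments.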
